A study of Mus musculus with 6 samples.

Results

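Transcript levels of 10 genes that are induced by the RAF-MEK-ERK cascade were examined in A375 cells, an established human melanoma line, after CRISPR guides against ABCE1 or YAE1. The genes were taken by Ensembl identifier, with no measured value in the rule, and are DUSP6 (ENSG00000139318), DUSP4 (ENSG00000120875), SPRY2 (ENSG00000136158), SPRY4 (ENSG00000187678), SPRED1 (ENSG00000166068), SPRED2 (ENSG00000198369), ETV4 (ENSG00000175832), ETV5 (ENSG00000244405), PHLDA1 (ENSG00000139289) and CCND1 (ENSG00000110092). They are 10 of the 62492 identifiers in the deposited table. All 10 passed the filter on low values (a mean of at least 1 FPKM over the libraries). FPKM scales the fragments of a gene by its length and by the depth of the library. The title of the series concerns an LTO1 complex and its link, through nonsense-mediated decay, to antigen presentation. ABCE1 separates ribosomal subunits after termination, and YAE1 acts with LTO1 in delivering an iron-sulfur cluster to it.

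The 3 groups had 2 libraries each. Every group, the controls included, carried lentiviral Cas9 with a guide and was kept under 10 µg/mL puromycin, with RNA taken on day 7. Control guides were directed at LacZ or Luciferase, sequences that are foreign to these cells, the ABCE1 group is titled sgAbce1 and the YAE1 group sgYAE1. The genotype field of the controls reads wild type, and that of the second ABCE1 and YAE1 libraries ends in a 2 (Abce2 knockout, Yae2 knockout), so groups follow the titles. The organism field reads Mus musculus, against a human cell line and human identifiers. Whether both libraries of a group share a guide or a culture, and whether the cells were clones, is not stated in the labels, and p-values therefore reflect spread that could be purely technical. The rows of ABCE1 and YAE1 and of melanocyte markers were not analysed here, so neither the knockouts nor the cell type was checked from the values.

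The RAF-MEK-ERK cascade carries growth factor signals from RAS to the nucleus, and in A375 it is held active by an activating mutation in BRAF. Active ERK induces its own brakes, among them DUSP phosphatases, Sprouty and SPRED proteins, as well as ETS transcription factors and cyclin D1. The transcripts of these genes are widely used as a readout of the cascade in melanoma, although each also responds to other inputs. In bulk RNA, a change in the share of cells that express a gene and a change in its RNA per cell cannot be told apart.

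Depth, worked out from the steps of the FPKM values, was 15713011 to 18399718 fragments per library. The 10 genes had 1311.5 to 10452 fragments in a library, so that the counting error of a single value was at most 2.76%. The gap between the 2 libraries of a group had a median of 2.87% of their mean over the 30 gene and group pairs and reached 14.1% for SPRED1 with YAE1 guides. In 9 of the 30 the gap exceeded 2 counting errors. Across genes, which are not independent replicates, r was 0.992 to 0.994 within groups and 0.942 to 0.98 between them.

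In each comparison with control, most of the 10 genes were higher, by 15.4% to 43.3% where they passed the test. CCND1 was lower in each. With ABCE1 guides 7 genes rose, 2 fell (SPRY2 and CCND1) and 1 did not pass (ETV5), by limma with an adjusted p under 0.05. With YAE1 guides 8 rose, 1 fell (CCND1) and 1 did not pass (SPRY2). Of all 12578 genes tested, 57.9% were called with ABCE1 guides (37.5% higher and 20.4% lower) and 51.8% with YAE1 guides (34.2% higher and 17.6% lower). The median log2 change of the 10 genes was 0.25 with ABCE1 guides, beside 0.10 over all genes, and 0.35 with YAE1 guides, also beside 0.10. Both comparisons use the same control libraries, and the share of all tested genes called alike in both was not counted.

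**Figure D1:**
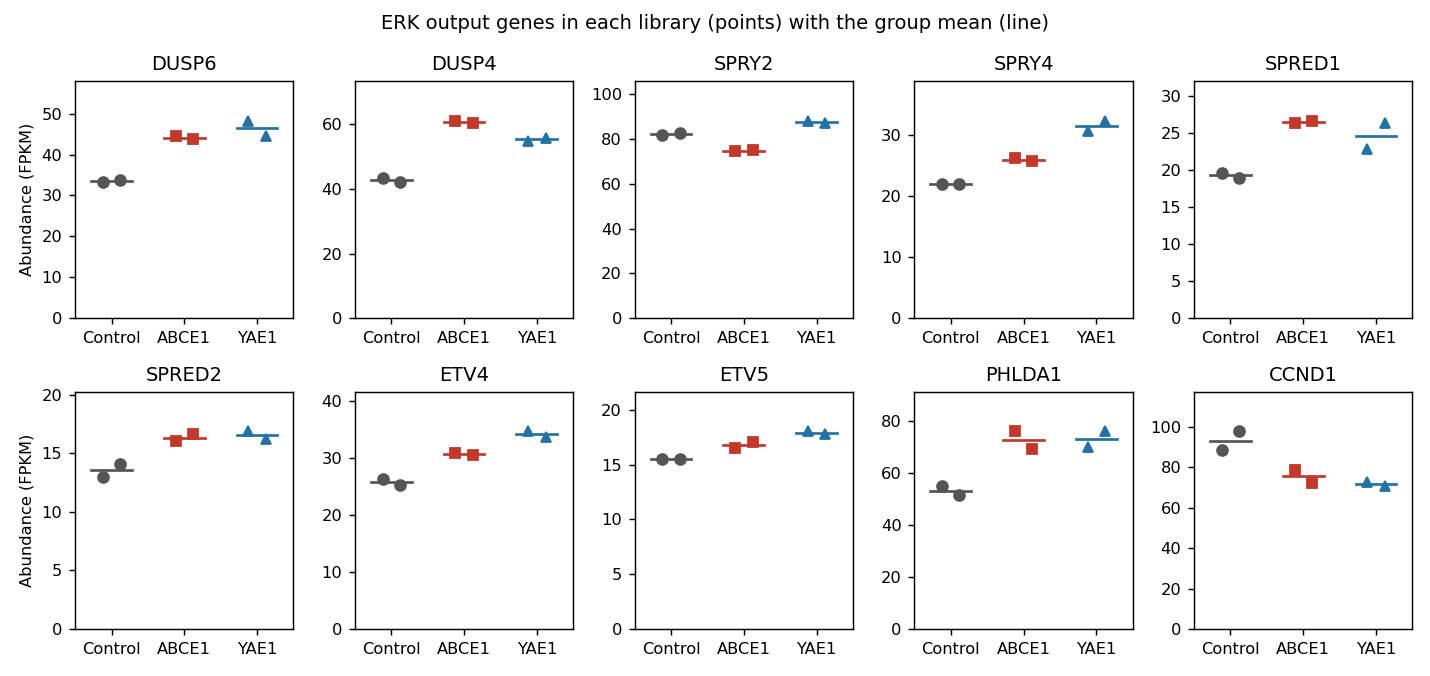
Abundance of each gene in FPKM (vertical axis, from 0) in the 2 libraries of the control, ABCE1 and YAE1 groups, with points for libraries and lines for group means. The libraries lie above both control libraries for 8 genes with ABCE1 guides (50.6% of all tested genes) and 9 with YAE1 guides (49.8%). They lie below both for SPRY2 and CCND1 with ABCE1 guides (30.9%) and for CCND1 with YAE1 guides (27.9%).

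DUSP6 and DUSP4 encode dual-specificity phosphatases that remove phosphate from ERK, DUSP6 in the cytoplasm and DUSP4 in the nucleus. DUSP6 stood at 33.4 and 33.8 FPKM in the controls, 44.4 and 43.8 with ABCE1 guides and 48.3 and 44.6 with YAE1 guides. Both knockouts lay wholly above the controls, and the lower YAE1 library was close to the ABCE1 libraries. From a control mean of 33.6 ± 0.33 FPKM (SD, n = 2), DUSP6 rose 1.31-fold to 44.1 ± 0.41 with ABCE1 guides, a difference of 0.38 ± 0.05 (SE) on the log2(FPKM + 1) scale used throughout, which slightly understates a change (limma adjusted p = 0.00075). With YAE1 guides it rose 1.38-fold to 46.5 ± 2.61 FPKM (log2 difference 0.45 ± 0.05, limma adjusted p = 0.00053).

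DUSP4 stood at 43.3 and 42.3 FPKM in the controls, 61.2 and 60.5 with ABCE1 guides and 55.0 and 55.8 with YAE1 guides. The 3 groups did not overlap, and the ABCE1 libraries were highest. DUSP4 rose 1.42-fold with ABCE1 guides (a log2 difference of 0.50 ± 0.04, limma adjusted p = 1e-04), the largest change of the 10 genes in that comparison, and 1.29-fold with YAE1 guides (0.36 ± 0.04, limma adjusted p = 0.00049). The rises of both phosphatase genes passed the test under all 16 alternative settings (other scalings, filters and pseudocounts, other fits and each library left out) in each knockout.

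SPRY2 and SPRY4 encode Sprouty proteins, membrane-associated inhibitors of receptor signalling to RAS and RAF. They did not change alike. SPRY2 stood at 81.9 and 82.5 FPKM in the controls, 74.6 and 74.9 with ABCE1 guides and 88.1 and 86.8 with YAE1 guides. Its ABCE1 libraries were below the controls and its YAE1 libraries above them. With ABCE1 guides SPRY2 fell by 9.06% (a log2 difference of -0.14 ± 0.04, limma adjusted p = 0.017), while with YAE1 guides it was 6.42% above control without passing (0.09 ± 0.04, 95% interval 0.002 to 0.18, limma adjusted p = 0.08). The ABCE1 call did not hold without any 1 of the 4 libraries compared (limma adjusted p = 0.083 and 0.098 without control replicate 1 and 2, and 0.089 and 0.079 without ABCE1 replicate 1 and 2).

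SPRY4 stood at 22.0 and 21.9 FPKM in the controls, 26.2 and 25.7 with ABCE1 guides and 30.6 and 32.4 with YAE1 guides. The groups formed 3 separate levels, with the YAE1 libraries highest. SPRY4 rose 1.18-fold with ABCE1 guides (a log2 difference of 0.23 ± 0.05, limma adjusted p = 0.005) and 1.43-fold with YAE1 guides (0.50 ± 0.05, limma adjusted p = 0.00028), the largest change of the 10 genes in the YAE1 comparison.

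SPRED1 and SPRED2 are Sprouty-related proteins that restrain RAS, SPRED1 by bringing neurofibromin to the membrane. SPRED1 stood at 19.7 and 18.9 FPKM in the controls, 26.4 and 26.7 with ABCE1 guides and 22.9 and 26.3 with YAE1 guides. All knockout libraries were above the controls, but the YAE1 libraries differed from each other by 14.1% of their mean, against a counting error of 2.5% for that gap. SPRED1 rose 1.38-fold with ABCE1 guides (a log2 difference of 0.44 ± 0.07, limma adjusted p = 0.0018) and 1.27-fold with YAE1 guides (0.33 ± 0.07, limma adjusted p = 0.0075).

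SPRED2, the least abundant of the 10 genes in each group, stood at 12.9 and 14.1 FPKM in the controls, 16.1 and 16.7 with ABCE1 guides and 16.9 and 16.2 with YAE1 guides. The knockout libraries overlapped with each other and lay above the controls. SPRED2 rose 1.21-fold with ABCE1 guides (a log2 difference of 0.26 ± 0.06, limma adjusted p = 0.0085) and 1.22-fold with YAE1 guides (0.27 ± 0.06, limma adjusted p = 0.008). The ABCE1 call was lost without control replicate 1 (limma adjusted p = 0.059) and without ABCE1 replicate 2 (0.054). It was also lost after centring each library on its median gene (log2 difference 0.118, limma adjusted p = 0.13), with quantile normalization (0.145, limma adjusted p = 0.064) and with TMM factors on the recovered fragments (0.143, limma adjusted p = 0.067). The YAE1 call was lost without control replicate 1 (limma adjusted p = 0.055).

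ETV4 and ETV5 are ETS transcription factors of the PEA3 family that act downstream of ERK. ETV4 stood at 26.3 and 25.3 FPKM in the controls, 31.0 and 30.6 with ABCE1 guides and 34.8 and 33.7 with YAE1 guides. Its groups did not overlap and the YAE1 libraries were highest. ETV4 rose 1.19-fold with ABCE1 guides (a log2 difference of 0.25 ± 0.04, limma adjusted p = 0.003) and 1.33-fold with YAE1 guides (0.40 ± 0.04, limma adjusted p = 0.00059).

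ETV5 stood at 15.6 and 15.5 FPKM in the controls, 16.5 and 17.1 with ABCE1 guides and 18.1 and 17.8 with YAE1 guides. The order of the groups was that of ETV4, with smaller steps. ETV5 was 1.08-fold the control level with ABCE1 guides, which did not pass (a log2 difference of 0.11 ± 0.04, 95% interval 0.001 to 0.22, limma adjusted p = 0.077), and rose 1.15-fold with YAE1 guides (0.19 ± 0.04, limma adjusted p = 0.011). The YAE1 call was lost without control replicate 1 (limma adjusted p = 0.06) or control replicate 2 (0.059).

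PHLDA1 encodes a pleckstrin homology-like protein induced by growth factor signalling. It stood at 54.9 and 51.3 FPKM in the controls, 75.9 and 69.1 with ABCE1 guides and 69.9 and 75.9 with YAE1 guides. The libraries of both knockouts spanned nearly the same range, above the controls. PHLDA1 rose 1.36-fold with ABCE1 guides (a log2 difference of 0.44 ± 0.07, limma adjusted p = 0.0015) and 1.37-fold with YAE1 guides (0.45 ± 0.07, limma adjusted p = 0.0018). It had the most fragments of the 10 genes, up to 10452 in a library, on a gene model worked out at 8069 bases.

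CCND1 encodes cyclin D1, which activates CDK4 and CDK6 for entry into S phase and which MAPK signalling sustains in melanoma cells. It stood at 88.8 and 98.0 FPKM in the controls, 78.8 and 72.6 with ABCE1 guides and 72.9 and 71.0 with YAE1 guides. All 4 knockout libraries were below both controls. From 93.4 ± 6.48 FPKM (SD, n = 2), CCND1 fell by 19.0% to 75.7 ± 4.42 with ABCE1 guides (a log2 difference of -0.30 ± 0.06, limma adjusted p = 0.0062) and by 23.0% to 71.9 ± 1.33 with YAE1 guides (-0.37 ± 0.06, limma adjusted p = 0.0031). Both calls passed under all 16 alternative settings, as did those of DUSP6, DUSP4, SPRED1 and PHLDA1 in both knockouts and of SPRY4 and ETV4 with YAE1 guides.

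**Figure D2:**
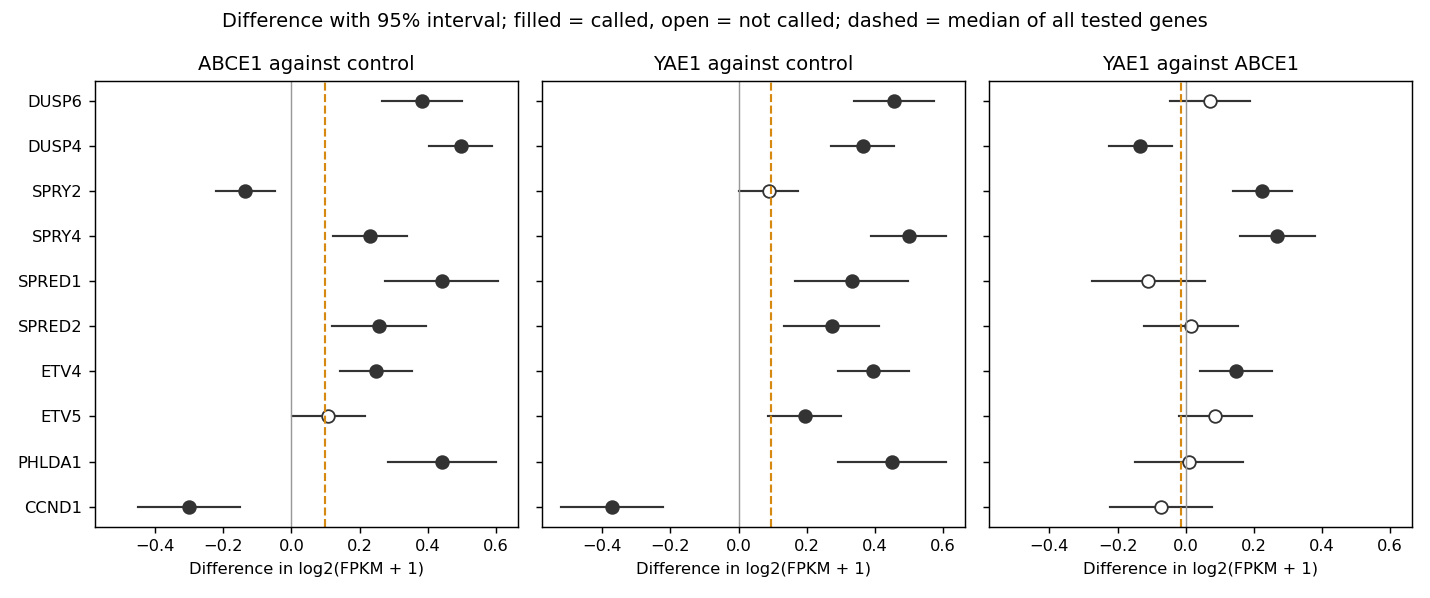
Difference in log2(FPKM + 1) of each gene (horizontal axis) with its 95% interval in 3 comparisons, where filled points passed limma's adjusted p of 0.05 and open points did not. The dashed line is the median of all 12578 tested genes, and CCND1 lies to the left of 0 in both comparisons with control, at -0.30 and -0.37.

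Set against all tested genes, the 10 genes lay within the bulk of the distribution. With ABCE1 guides DUSP4 was above 82.2% of tested genes, SPRED1 and PHLDA1 above 79.1% and DUSP6 above 75.3%, while CCND1 was above 15.6% and SPRY2 above 26.9%. With YAE1 guides SPRY4 was above 86.5%, DUSP6 above 84.1%, PHLDA1 above 83.7% and ETV4 above 80.3%, and CCND1 was above 10.7%. Libraries of the group lay wholly above the controls for 8 of the 10 genes with ABCE1 guides, where 50.6% of tested genes did so, and for 9 of 10 with YAE1 guides, where 49.8% did. They lay wholly below for 2 of 10 with ABCE1 guides (30.9% of tested genes) and 1 of 10 with YAE1 guides (27.9%). The shares are counts on a small chosen list, and no test was made over it.

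**Figure D3:**
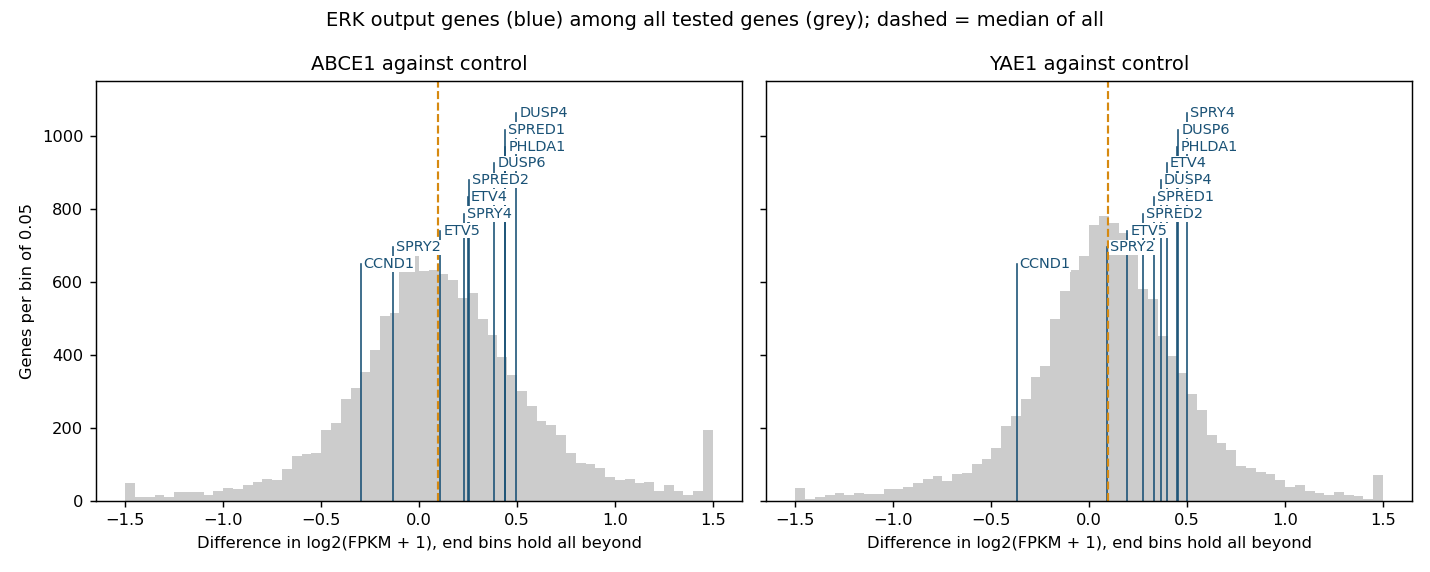
Number of tested genes (vertical axis) per bin of 0.05 in the difference of log2(FPKM + 1) (horizontal axis) for each knockout against control, with the 10 genes as labelled lines and the median of all genes dashed. Of the 10 genes, 8 lie above that median with ABCE1 guides and 8 with YAE1 guides.

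The general shift of the transcriptome bears on the smaller changes. The median over all tested genes was 0.10 on the authors' scale in both comparisons, and it was -0.04 and -0.001 after centring each library on its median gene. On that centred scale 4 genes rose and 2 fell with ABCE1 guides, and 7 rose and 1 fell with YAE1 guides, while 26% and 24% of all tested genes were called higher and 31.1% and 24.8% lower. SPRY4, SPRED2 and ETV4 no longer passed with ABCE1 guides (centred log2 differences 0.092, 0.118 and 0.11, limma adjusted p = 0.12, 0.13 and 0.086), nor ETV5 with YAE1 guides (0.097, limma adjusted p = 0.13). With quantile normalization 6 rose and 1 fell with ABCE1 guides (27.3% and 28.4% of all tested genes), and 9 rose and 1 fell with YAE1 guides (24.8% and 22.8%). The centred difference of DUSP6 with ABCE1 guides was 0.245, and that of SPRED2 with YAE1 guides was 0.175, and both passed. The call of SPRY2 changed with the scale in both comparisons. With ABCE1 guides its log2 difference was -0.274 after centring and -0.026 after quantile normalization (limma adjusted p = 0.52). With YAE1 guides it was at 0.164 after quantile normalization and passed (limma adjusted p = 0.007). Without passing, its YAE1 value lay below 0 after centring and with TMM factors (a trimmed mean scaling of the recovered fragments), and so did the ABCE1 value of ETV5.

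**Figure D4:**
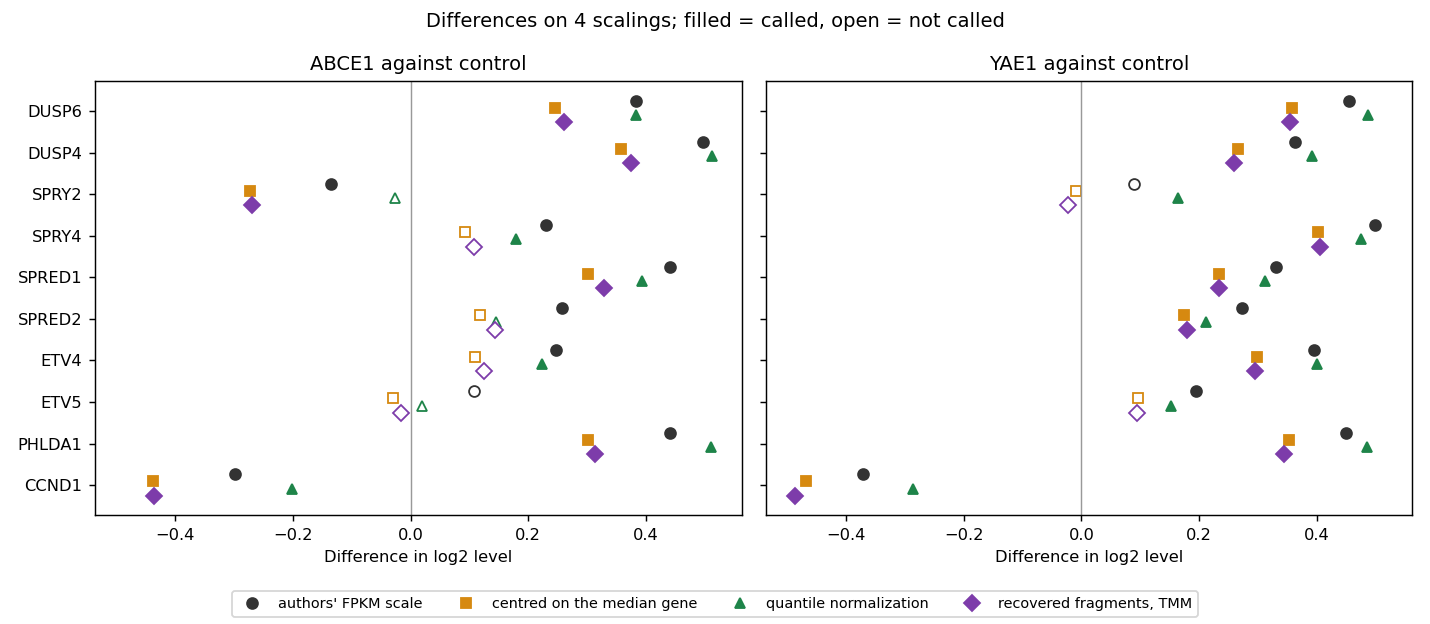
Log2 difference from control (horizontal axis) of each gene on 4 scalings of the same libraries, with filled points past an adjusted p of 0.05 and open points not. DUSP6, DUSP4, SPRED1 and PHLDA1 stay to the right of 0 and CCND1 to the left on each scaling. SPRY2 lies on either side of 0 with YAE1 guides only, and ETV5 with ABCE1 guides only.

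Ratios between 2 genes of a library do not depend on a factor applied to that whole library, but can change with quantile normalization. They are given as values and were not tested, and the pairs with CCND1 were chosen after the values were seen. SPRY2 stood at 3.72 and 3.76 times SPRY4 in the controls, 2.85 and 2.91 times with ABCE1 guides and 2.88 and 2.69 times with YAE1 guides. Both knockouts had a lower ratio than either control, at nearly the same level, although SPRY2 and SPRY4 were both more abundant with YAE1 than with ABCE1 guides. ETV4 stood at 1.69 and 1.63 times ETV5 in the controls, 1.87 and 1.79 times with ABCE1 guides and 1.92 and 1.89 times with YAE1 guides, higher in every knockout library. The ratio of DUSP4 to DUSP6 was 1.30 and 1.25 in the controls, 1.38 and 1.38 with ABCE1 guides and 1.14 and 1.25 with YAE1 guides. Here the ABCE1 libraries were above both controls. The ratio of SPRED1 to SPRED2 was 1.52 and 1.34 in the controls, 1.64 and 1.60 with ABCE1 guides and 1.35 and 1.62 with YAE1 guides. The ABCE1 libraries were again above both controls, and the YAE1 libraries overlapped both other groups.

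The pairs with CCND1 restate the values above as relative levels within a library. The FPKM of CCND1 was 2.66 and 2.90 times that of DUSP6 in the controls, 1.77 and 1.66 times with ABCE1 guides and 1.51 and 1.59 times with YAE1 guides. PHLDA1 stood at 0.619 and 0.523 of the CCND1 level in the controls, 0.963 and 0.952 with ABCE1 guides and 0.96 and 1.07 with YAE1 guides. In both pairs all 4 knockout libraries were on the same side of both controls.

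**Figure D5:**
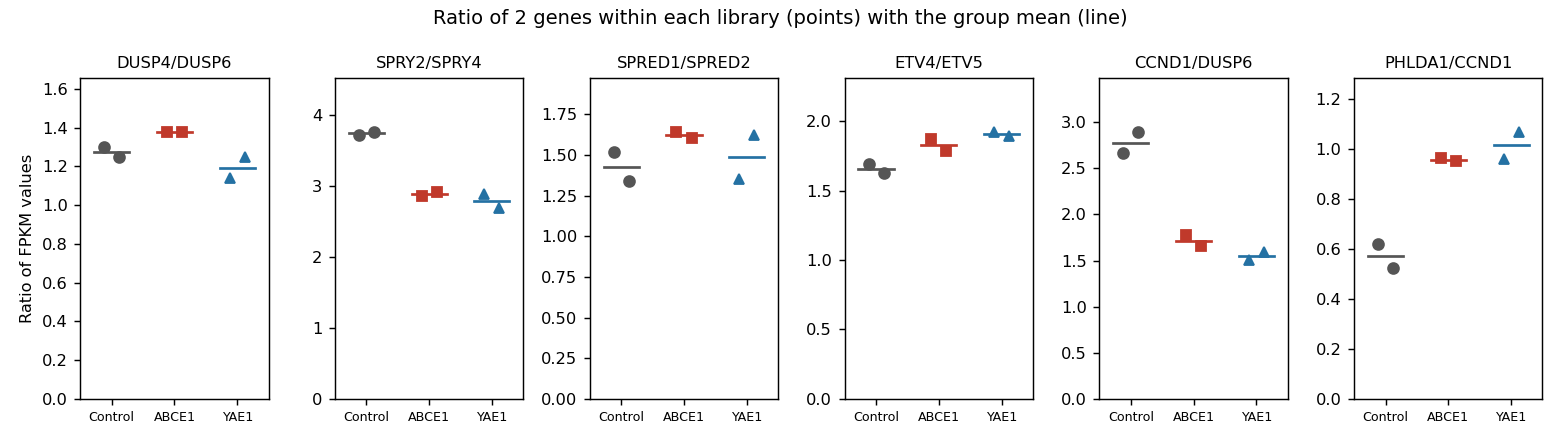
Ratio of the FPKM values of 2 genes within each library (vertical axis, from 0) for 6 pairs, with points for libraries and lines for group means. The mean ratio of CCND1 to DUSP6 is 2.78 in the controls, 1.72 with ABCE1 guides and 1.55 with YAE1 guides, and that of SPRY2 to SPRY4 is 3.74, 2.88 and 2.78.

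Because FPKM is per length of gene, FPKM values can also be ordered between genes. The order rests on gene model lengths, worked out at 3213 to 8069 bases, which may differ from the transcripts expressed in these cells. Overlap between libraries does not measure an error in those lengths, so close neighbours may not be ordered by RNA abundance. In the controls the order was CCND1 (93.4 FPKM), SPRY2 (82.2), PHLDA1 (53.1), DUSP4 (42.8), DUSP6 (33.6), ETV4 (25.8), SPRY4 (22.0), SPRED1 (19.3), ETV5 (15.5) and SPRED2 (13.5), and no neighbours overlapped between their 2 libraries. With ABCE1 guides CCND1, SPRY2 and PHLDA1 (75.7, 74.8 and 72.5 FPKM) overlapped, as did ETV5 and SPRED2 (16.8 and 16.4), and SPRED1 (26.5) was just above SPRY4 (25.9). With YAE1 guides SPRY2 came first (87.5 FPKM), followed by PHLDA1 and CCND1 (72.9 and 71.9), which overlapped. CCND1, the most abundant of the 10 in the controls, thus ranked 3 with YAE1 guides.

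The direct comparison asked where the knockouts differed. Relative to ABCE1 guides, YAE1 guides gave higher SPRY2, SPRY4 and ETV4 and lower DUSP4, and the other 6 genes did not pass. Of all tested genes 34% were called in this comparison, 15.3% higher and 18.7% lower. The YAE1 libraries lay wholly above the ABCE1 libraries for 5 of the 10 genes (33.4% of tested genes) and wholly below for 2 (36.8%). SPRY4 was 1.21-fold higher with YAE1 guides (log2 difference 0.27 ± 0.05, limma adjusted p = 0.0077) and SPRY2 1.17-fold higher (0.22 ± 0.04, limma adjusted p = 0.0067). Both passed under all 16 alternative settings, but only narrowly with either ABCE1 library left out. Without ABCE1 replicate 1 and 2 the log2 differences were 0.281 and 0.257 for SPRY4, and 0.221 and 0.227 for SPRY2. ETV4 was 1.11-fold higher (0.15 ± 0.04, limma adjusted p = 0.042) and DUSP4 lower by a log2 difference of -0.13 ± 0.04 (limma adjusted p = 0.039).

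The calls for ETV4 and DUSP4 were near the threshold, and passed under 8 and 5 of the 16 alternative settings. That of ETV4 was lost with no filter, with only the 4 libraries compared and with the replicate block (limma adjusted p = 0.086, 0.071 and 0.056). Without control replicate 1 or 2, ABCE1 replicate 1 or 2, or YAE1 replicate 1, the limma adjusted p of DUSP4 was 0.077, 0.078, 0.17, 0.13 and 0.079 in that order, and that of ETV4 was 0.071, 0.072, 0.14, 0.16 and 0.11. SPRED1, at 24.6 ± 2.46 FPKM with YAE1 and 26.5 ± 0.23 with ABCE1 guides (SD, n = 2), did not pass (log2 difference -0.11, 95% interval -0.27 to 0.06, limma adjusted p = 0.26), but without YAE1 replicate 2 it was lower with YAE1 guides (-0.208, limma adjusted p = 0.03). For the rest the 95% intervals of the log2 difference were -0.05 to 0.19 for DUSP6, -0.02 to 0.19 for ETV5, -0.12 to 0.15 for SPRED2, -0.15 to 0.17 for PHLDA1 and -0.22 to 0.08 for CCND1, so that differences of those sizes remain possible.

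The genes most like DUSP6 over the 6 libraries were sought among the 7046 others with a mean of at least 5 FPKM, by the root mean square difference of log2 values centred on each gene's mean. The nearest were ENSG00000109079 (0.0208) and ENSG00000124155 (0.0276), which the table gives without a symbol. ENSG00000109079 stood at 18.0 and 18.9 FPKM in the controls, 25.3 and 24.4 with ABCE1 guides and 26.9 and 25.0 with YAE1 guides. Among the ERK output genes ETV4 was nearest to DUSP6 (0.0627, position 145), followed by SPRED2 (0.0854, position 401) and PHLDA1 (0.0861, position 412), and CCND1 was farthest (0.364, position 5795). Genes outside the list were nearer to DUSP6 than any within it. With 7046 genes compared and few of them members, that was likely in advance and does not measure how alike the members are.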

How the data were processed

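RNA of 6 A375 libraries (1 µg each) was sequenced as strand-specific 150 bp pairs, per the labels' protocols. The authors deposited 1 table of FPKM values with Ensembl identifiers, and the submitters' processing notes name GRCh37. With the aligner, counting program and any use of strand in counting not given in the sources used here, reads of antisense transcripts cannot be told apart from those of a gene. Only mouse reference tables were at hand, and 0 of 62492 identifiers matched them. Symbols of the 10 genes came with their identifiers, the other pathway genes, the targeted genes and cell type markers listed for this work were not analysed here, and no sequence or position is given. The 10 genes and all lists were chosen with earlier results of these data known.

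The filter (mean FPKM of 1 or more) left 12578 genes. Their log2(FPKM + 1) values were compared in limma 3.58.1 (R 4.3.3; group means, 6 libraries in 1 fit, eBayes with a trend, 3 residual and 3.6 prior degrees of freedom, Benjamini-Hochberg adjustment over all genes tested, threshold 0.05). All 10 genes are named, with the 2 identifiers nearest to DUSP6. Library totals and fragment numbers were worked out from the exact steps of the FPKM values, for 38268 of 38269 genes above 0. They were taken as multiples of 0.5 fragments within 1e-06, a step that was assumed. Of recovered genes, 11.2% had whole fragments in every library. Totals, fragment numbers and counting errors depend on the assumed step. Counting errors cover counting only. Recovery was checked on simulated data with the library totals and the step of 0.5 given, so neither of these was checked. The test was checked on simulated libraries with far fewer changed genes than were called here, and without a general shift. That check does not cover a shift of most genes. Alternatives were pseudocounts of 0.1 and 0.5, other filters, centring, quantile normalization, voom on recovered fragments with and without TMM factors, the 4 libraries compared alone, a replicate block and leaving out each library.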

Additional observations from a re-analysis of the deposited data

Results flagged for a closer look

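The change from control differed between the knockouts, by the direct test of YAE1 against ABCE1 guides, for 4 of the 10 genes. The difference in log2 change was 0.27 for SPRY4 (limma adjusted p = 0.0077) and 0.22 for SPRY2 (limma adjusted p = 0.0067). It was 0.15 for ETV4 (limma adjusted p = 0.042) and -0.13 for DUSP4 (limma adjusted p = 0.039). The calls of ETV4 and DUSP4 were lost with the replicate block (limma adjusted p = 0.056 and 0.067), among other settings. SPRY2 was below control in both ABCE1 libraries and above it in both YAE1 libraries, but the YAE1 difference from control did not pass (limma adjusted p = 0.08) and was -0.009 after centring and -0.023 with TMM factors. The ABCE1 call was lost without any 1 of the 4 libraries compared and with quantile normalization (-0.026, limma adjusted p = 0.52). Over all tested genes 34% differed between the knockouts, a share near that of the 10 genes. With 2 libraries a group, outlying libraries were not looked for.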

How the results depend on the processing

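Over 16 alternatives, 440 of 480 values of single genes kept their side of the threshold, 38 lost the call and 2 gained it. No called value changed sign. Under other filters, the 4 libraries alone, the replicate block or without a library outside the comparison, the log2 difference itself could not move. Values not called changed sign under some settings for SPRY2 (YAE1 against control) and ETV5 (ABCE1 against control). So did those of SPRED2 and PHLDA1 (YAE1 against ABCE1). Centring gave 4 genes higher with ABCE1 guides in place of 7, beside 26% of all tested genes in place of 37.5%. Voom with TMM factors also gave 4, beside 30% of all tested genes. Quantile normalization gave 1 lower with ABCE1 guides in place of 2, beside 28.4% of all tested genes in place of 20.4%. The 1 gene called lower with YAE1 than with ABCE1 guides was DUSP4, beside 18.7% of all tested genes. That count became 0 with no filter (3.09% of all), centring (15%), quantile normalization (15.8%) and TMM factors (20.3%). It also became 0 with only the 4 libraries compared (15.7%) and with the replicate block (16.7%). Under these settings the limma adjusted p of DUSP4 was 0.056 to 0.12. With no filter more genes were tested (38269), and with 4 libraries or the block fewer degrees of freedom were left. Why calls were lost was not tested under any setting.

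Leaving out 1 library gave 6 to 7 genes higher and 1 to 2 lower with ABCE1 guides, 6 to 8 higher and 1 lower with YAE1 guides, and 2 to 3 higher and 0 to 2 lower with YAE1 than with ABCE1 guides. The shares of all tested genes called higher and lower were then 30% to 38.6% and 15.2% to 21.5%, 24.3% to 32% and 11.8% to 17%, and 6.67% to 13% and 7.59% to 16.6%. A group left with 1 library was assumed to vary like the others. The titles give each group replicate numbers 1 and 2, but same-numbered libraries did not deviate together (r = -0.053, -0.0133 and -0.00926 across 12578 genes). The replicate block gave 7 higher and 2 lower with ABCE1 guides, 8 and 1 with YAE1 guides, and 2 higher and 0 lower between the knockouts, beside 36.4% and 19.7%, 32.8% and 17%, and 13.3% and 16.7% of all tested genes. Counting error was at most 2.76% of a value, and 9 of 30 gaps between the 2 libraries of a group exceeded 2 counting errors of the gap.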
